A study of Mus musculus with 12 samples.

Results

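The comparison set 3 libraries of MLO-Y4 cells that were differentiated and given BIGH3 against 3 libraries of undifferentiated control cells, 6 of the 12 RNA-seq libraries in the study. It asked, for each gene, whether its level in the differentiated BIGH3 cells stood at, short of or beyond the level of the undifferentiated cells. The libraries were chosen by their labels alone, and the differentiated controls and the undifferentiated BIGH3 cells entered neither side of the comparison. MLO-Y4 is a clonal, immortalised mouse line derived from long bone osteocytes that carries a viral large T antigen, and all groups are labelled wild type. The deposited tables carry the prefix MC3 in place of that name, which no label explains, so the line is given here as labelled and its identity was not tested. Plates of every group were coated with rat tail type I collagen at 0.15 mg/mL, and differentiation used β-glycerophosphate at 4 mM together with ascorbic acid at 50 µg/mL, in α-MEM that held fetal bovine serum at 10%. BIGH3 was recombinant human protein; its dose, the length of the treatment and of the differentiation, and what the control cells received are not given in the sources used here. Medium and BIGH3 therefore changed together between the groups, and their parts in any difference cannot be told apart. No label states whether replicate libraries were grown as separate cultures, and the p-values measure the spread between these libraries, which may be technical.

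BIGH3, encoded by Tgfbi, is a secreted matrix protein with fasciclin domains that is induced by TGF-β and binds integrins and collagen. Osteocytes are the cells embedded in bone matrix; they talk to each other through gap junctions built from connexins, mainly connexin 43, the product of Gja1. Ascorbic acid is the cofactor of the enzymes that hydroxylate collagen, and β-glycerophosphate is a phosphate donor for mineral once alkaline phosphatase cleaves it. The study's stated aim concerned the effect of BIGH3 on Gja1.

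The 6 libraries held 19014492 to 27612155 estimated reads, and 14711 genes had enough reads to be tested. Of 12 osteocyte marker genes, Dmp1, Phex, Pdpn, Irx5, Cd44 and Ackr3 were measurable in both groups, whereas Sost, Fgf23 and Fbln7 had no read in any of the 6 libraries. Mepe had 4 reads over the control libraries and 2 over the differentiated BIGH3 libraries, Dkk1 had 2 and 1, and Wnt1 had 2 and 0. Transcripts of liver, such as Afp and Apoh, stood apart in 2 libraries. Of 17 listed, 12 were tested. These 12 summed to 125 CPM (estimated counts scaled to a common library size, with TMM factors) in undifferentiated control 2. The sum was 85.4 CPM in differentiated BIGH3 3, against 6.99 to 7.23 CPM in the other control libraries and 29.3 to 30.2 CPM in the other differentiated BIGH3 libraries. The major erythroid markers were not measurable. Of 13 markers of macrophages and osteoclasts, Tyrobp, Dcstamp and Calcr had no read in the 6 libraries. Of the 5 tested, 3 were higher in the differentiated BIGH3 cells and 0 lower. Their sum was 29.1 to 30.1 CPM in the control libraries and 53.3 to 62.1 CPM in the differentiated BIGH3 libraries. The share of reads from the mitochondrial genome was 3.30% to 3.98% in the control libraries and 7.14% to 8.10% in the differentiated BIGH3 libraries.

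Most genes tested stood away from the undifferentiated level, with rises and falls in near balance. With edgeR's quasi-likelihood test and Benjamini-Hochberg adjustment, 4267 genes (29.0% of those tested) were higher in the differentiated BIGH3 cells and 4050 (27.5%) were lower, 56.5% in all. A gene was called at the undifferentiated level where it was not called and the 95% interval of its fold change lay within 1.3-fold either way, which held for 3042 genes (20.7%). The other 3352 genes (22.8%) were unresolved; their median level was 0.33 log2 CPM, against 5.31 for the genes at the level. Over 2-fold differences were fewer, 1167 genes higher (7.93%) and 680 lower (4.62%), and 134 genes against 29 passed 16-fold. The libraries of the 2 groups did not overlap for 9086 genes (61.8%), and 1251 of the called genes had an interval within 1.3-fold (8.50% of all tested), small differences that were still called. Leaving out the libraries with liver transcripts also took differentiated control 2 out of the fit. In that setting 49.5% of genes were called, 7039 of the calls were shared and none had reversed. In bulk RNA, fewer cells of a kind and less RNA per cell cannot be told apart.

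The balance of rises and falls rested on the scaling. TMM scaling, used throughout, sets aside the most abundant and most changed genes. Scaled to library totals, the median gene moved by -0.14 on the log2 scale and 34.9% of the calls were higher. On the authors' TPM values, which are also divided by transcript length, the median gene moved by -0.26 and 22.8% were higher. After TMM scaling of these TPM values it moved by -0.01 and 49.2% were higher. Of the 3042 genes at the level, 1169 were called when library totals were used and 1974 on the TPM values. Differences under about 1.3-fold are therefore given relative to the TMM scale.

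**Figure D1:**
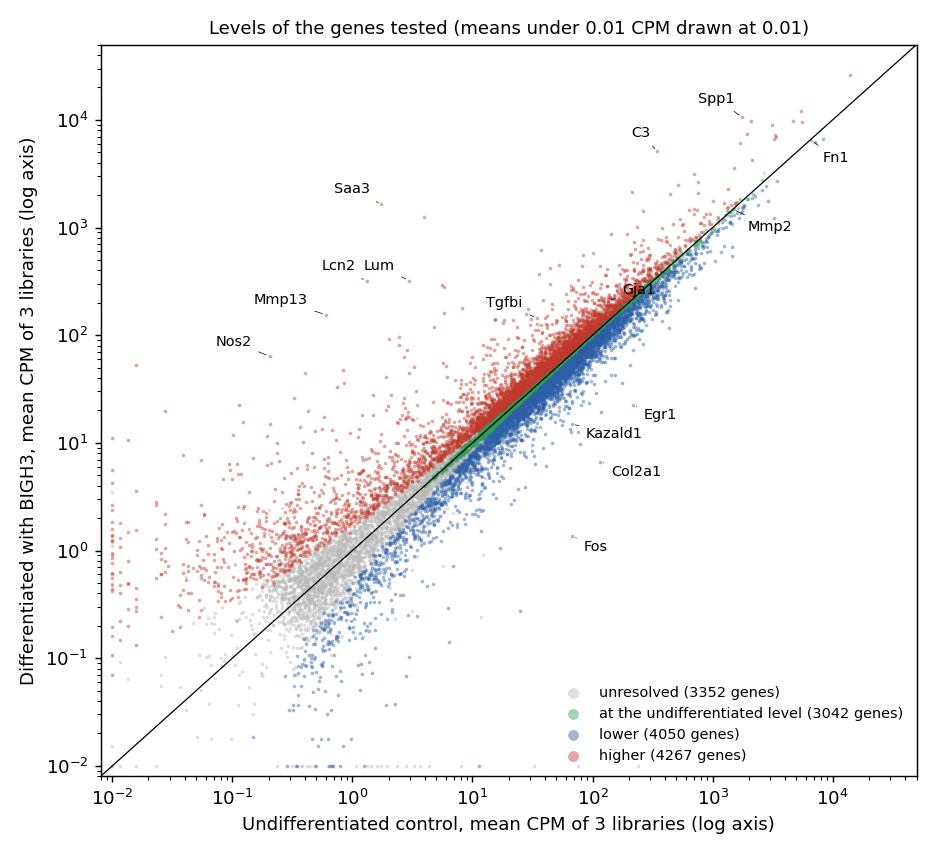
Mean CPM of each gene tested in the undifferentiated control libraries (x axis, log) against the differentiated BIGH3 libraries (y axis, log), with 1 point per gene, the line of equality, and colours for the 4267 genes higher, 4050 lower, 3042 at the undifferentiated level and 3352 unresolved; means under 0.01 CPM are drawn at 0.01. Saa3, Lcn2, Mmp13, Nos2 and Lum stand far above the line, Fos, Egr1 and Col2a1 below it, and Fn1 and Mmp2 on it.

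Gja1 stood beyond the undifferentiated level while the other connexins that were called stood short of it. Gja1 (chromosome 10, 56377330 to 56402513, GRCm38) was measured at 135, 132 and 134 CPM in the control libraries and at 204, 213 and 204 CPM in the differentiated BIGH3 libraries. The groups did not overlap, and Gja1 rose 1.55-fold (95% interval 1.44 to 1.66, adjusted p = 5.89e-10). Panx3, a pannexin channel gene of osteoblasts and chondrocytes, fell from 13.6, 14.7 and 12.8 CPM to 4.47, 5.03 and 5.15 CPM, a log2 change of -1.49 (SE 0.11). This fall left the lowest control library above the highest differentiated BIGH3 library. Gjb5 (log2 change -1.98) and Gjc1 (-0.35) also fell, and Gjb1 was unresolved at under 1 CPM in every library. Of 23 connexins and pannexins, 8 were tested, 1 was higher and 5 were lower, with a median log2 change of -1.01 against 0.00 over all genes tested. Their summed level was 240.4 to 251.8 CPM in the control libraries and 252.8 to 263.8 CPM in the differentiated BIGH3 libraries.

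Tgfbi itself, the mouse gene for the protein that was added (chromosome 13, 56609523 to 56639562), stood at 36.3, 34.4 and 33.2 CPM in the control libraries and at 149, 148 and 134 CPM in the differentiated BIGH3 libraries. It rose 4.16-fold (95% interval 3.84 to 4.49, adjusted p = 1.90e-17). Its relative Postn, periostin, a fasciclin-domain protein of periosteum, rose from 735, 752 and 771 CPM to 2657, 2649 and 2603 CPM, 3.50-fold. Both genes moved well past the spread between libraries, which was under 60 CPM within each group for either gene.

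Acute phase genes stood far beyond the undifferentiated level. Most of them encode secreted proteins that liver and stromal cells make in response to interleukins 1 and 6, in part through C/EBP transcription factors. Of 24 listed, 19 were tested, 17 rose, all over 2-fold, and 1 fell, with a median log2 change of 5.49. Saa3, serum amyloid A of stromal cells and macrophages, was at 2.35, 1.27 and 1.60 CPM in the control libraries and at 1777, 1728 and 1429 CPM in the differentiated BIGH3 libraries, 958-fold higher (95% interval 542 to 1694). Hp, haptoglobin, which binds free haemoglobin, rose from 4.78, 3.92 and 3.11 CPM to 1260, 1280 and 1216 CPM. Lcn2, lipocalin 2, which captures bacterial iron carriers, rose from 1.78, 1.14 and 1.01 CPM to 361, 334 and 260.3 CPM. These 3 genes went from near silence to at least 260.3 CPM in every differentiated BIGH3 library. Cp, ceruloplasmin, the copper-bound ferroxidase, was already expressed, at 204, 216 and 216 CPM, and reached 2126, 2148 and 2127 CPM, 10.1-fold. Steap4, a metalloreductase, had 1 read over the control libraries and 3076 over the differentiated BIGH3 libraries, a ratio of 3910 with a counting interval of 702 to 155000. Saa1 had no control read and 328 reads in the differentiated BIGH3 cells, at least 139-fold higher with the control group set to a limit of 3 reads in all; Saa1 and its neighbours are near-identical copies whose reads the quantification may have divided. The exception was Ptx3, pentraxin 3, which fell from 265, 266 and 280.3 CPM to 150.5, 146 and 112 CPM.

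Promoter sequences of 2 acute phase genes are shown because these genes rose together from a low start and their promoters share a motif. The 250 bases before the RefSeq start (GRCm38.p6) are printed on the gene's strand, with TTGCNNAA, a C/EBP motif, in capitals on either strand:
Saa3, chr7:46715677-46715926, minus strand: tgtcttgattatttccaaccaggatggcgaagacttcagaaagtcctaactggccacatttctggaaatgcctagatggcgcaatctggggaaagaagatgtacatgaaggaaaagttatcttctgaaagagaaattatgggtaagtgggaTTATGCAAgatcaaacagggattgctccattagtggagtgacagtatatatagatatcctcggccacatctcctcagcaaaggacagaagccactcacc
Lcn2, chr2:32387740-32387989, minus strand: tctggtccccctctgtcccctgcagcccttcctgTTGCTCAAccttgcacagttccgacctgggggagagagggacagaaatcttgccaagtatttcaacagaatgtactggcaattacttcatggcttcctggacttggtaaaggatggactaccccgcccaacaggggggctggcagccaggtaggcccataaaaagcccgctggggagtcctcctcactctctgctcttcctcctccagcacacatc
The match began 99 bases before the start in Saa3 and 216 bases before it in Lcn2. In windows from 250 bases before to 50 bases after the start, searched on both strands, 11 of the 17 tested acute phase genes with a window held the motif (64.7%), against 1082 of all 10523 tested genes with a window (10.3%). Among the 735 genes with a window that rose over 2-fold the share was 18.5%. Saa1 and Saa2 have near-identical promoters with the same match, TTGCACAA, and were counted as separate genes. A match is a description of the letters, not of binding.

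Complement genes, which encode the plasma cascade that tags and lyses targets, had 9 of 14 tested members higher and 2 lower, with a median log2 change of 1.06. C3, the central component, rose from 336, 336 and 367 CPM to 5027, 5344 and 4963 CPM, 14.8-fold (95% interval 13.8 to 15.8). C4b rose from 34.2, 38.0 and 40.4 CPM to 569.6, 603 and 702 CPM. Cfb, factor B of the alternative pathway, rose from 5.25, 5.39 and 6.14 CPM to 292, 312 and 282 CPM. An inhibitor rose with the activators. Serping1, the C1 inhibitor, rose 71.8-fold from 0.047, 0.57 and 0.00 CPM to 16.5, 14.3 and 14.1 CPM (95% interval 24.3 to 213). Most of its control reads lay in undifferentiated control 2, which stood apart in liver transcripts; its log2 change was 6.17 with all libraries, 9.18 without that library and 5.50 without undifferentiated control 3. C1ra and C1s1, proteases of the classical pathway, rose 2.19-fold and 2.01-fold.

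Chemokine genes rose or stayed, and none of the 18 tested fell: 14 were higher, 2 stood at the undifferentiated level and 2 were unresolved, with a median log2 change of 2.21. Cxcl12, the ligand that holds haematopoietic and tumour cells in marrow, rose from 708, 697 and 686 CPM to 3233, 3249 and 3041 CPM, 4.55-fold. Ccl2, a monocyte attractant, rose from 106, 101 and 93.2 CPM to 622, 619.7 and 496 CPM. Cxcl5, a neutrophil attractant, rose from 6.05, 4.86 and 6.32 CPM to 296, 293 and 244 CPM. The 3 attractants thus started at different levels and all ended above every control library. Ccl8 rose 79.0-fold, Cxcl9 10.2-fold, Cx3cl1 3.86-fold and Cxcl10 3.34-fold. Ccl11, an eosinophil attractant, was at 9.11 to 9.95 CPM in the control libraries and 10.1 to 11.7 CPM in the differentiated BIGH3 libraries, and counted as at the level with a 95% interval of 0.996 to 1.29-fold.

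**Figure D2:**
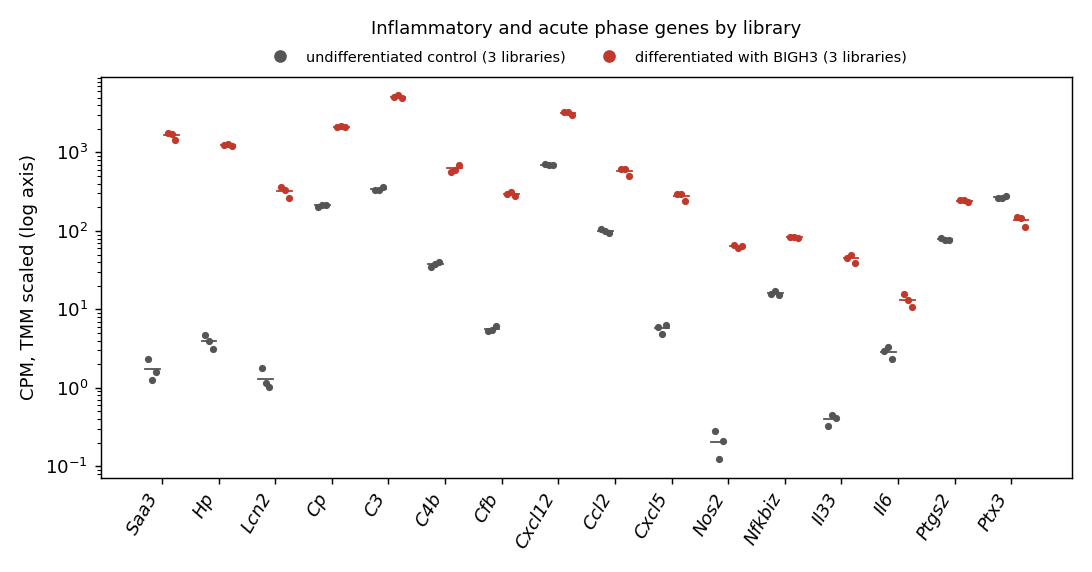
CPM (log axis) of 16 inflammatory and acute phase genes in each of the 3 undifferentiated control libraries (grey) and 3 differentiated BIGH3 libraries (red), with 1 point per library and a bar at the group mean. The groups are apart for every gene drawn, and Ptx3 is the gene drawn with the red points below the grey.

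NF-kB is a family of transcription factors that inflammatory signals release from inhibitors, and some of its targets restrain the pathway. Of the 26 genes of subunits, inhibitors and targets tested, 25 were higher and 1 was unresolved, with a median log2 change of 1.5; library totals left 22 higher and TPM 21. Among targets, Nos2, the inducible nitric oxide synthase, rose from 0.28, 0.12 and 0.21 CPM to 65.2, 61.3 and 64.2 CPM, 307-fold (95% interval 190 to 496). Vcam1, a leukocyte adhesion molecule, rose from 372, 384 and 386 CPM to 1002, 969 and 968 CPM. Tnip1, which restrains the pathway, rose 4.23-fold, Nfkbiz, a nuclear cofactor of it, 5.18-fold and Zc3h12a, which degrades cytokine mRNA, 3.33-fold. Nfkbia, which encodes the inhibitor IκBα, rose 1.70-fold from 75.1, 70.9 and 73.4 CPM to 129.6, 126 and 117 CPM. Sod2, the mitochondrial superoxide dismutase, rose 3.38-fold. All of these differences exceeded the spread between libraries.

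Among the promoters of these genes and the chemokines, a match to an NF-kB motif, GGGA, any base and TTTCC, was found in few. The 2 below are shown because one belongs to an inhibitor and the other to a chemokine, with the match in capitals, 250 bases before the RefSeq start on the gene's strand (GRCm38.p6):
Cxcl1, chr5:90890995-90891244, plus strand: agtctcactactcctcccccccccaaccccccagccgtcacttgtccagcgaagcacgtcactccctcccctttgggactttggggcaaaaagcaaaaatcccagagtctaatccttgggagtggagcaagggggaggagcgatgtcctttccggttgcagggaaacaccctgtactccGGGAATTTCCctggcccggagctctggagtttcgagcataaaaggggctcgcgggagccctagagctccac
Nfkbia, chr12:55492648-55492897, minus strand: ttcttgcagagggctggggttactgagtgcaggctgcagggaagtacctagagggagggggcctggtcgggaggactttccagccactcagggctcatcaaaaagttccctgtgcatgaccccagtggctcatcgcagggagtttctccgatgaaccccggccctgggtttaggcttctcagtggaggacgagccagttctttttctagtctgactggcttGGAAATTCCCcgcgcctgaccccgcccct
In windows to 50 bases past the start, on both strands, 3 of 20 genes of the NF-kB list with a window held it (15%), 1 of 12 chemokines (8.33%) and none of 17 acute phase genes, against 54 of 10523 tested genes (0.513%). Cxcl1, a neutrophil attractant, rose from 0.56, 0.41 and 0.42 CPM to 8.43, 8.82 and 6.88 CPM.

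Of 30 cytokines and receptors tested, 24 rose and 2 fell, with a median log2 change of 1.17. Il33, an alarmin stored in nuclei of stromal cells, rose 109.6-fold from 0.33, 0.45 and 0.42 CPM to 45.8, 48.7 and 39.6 CPM, and its receptor gene Il1rl1 rose 9.79-fold. Il6 rose from 2.95, 3.31 and 2.30 CPM to 15.6, 13.3 and 10.6 CPM, and Il1a had no control read and 93 reads in the differentiated BIGH3 cells, at least 39.5-fold higher. Lifr and Osmr, receptors of the interleukin 6 family, rose 4.52-fold and 2.90-fold, and their feedback inhibitor Socs3 rose 2.81-fold. Tlr2, a receptor for bacterial lipoproteins, rose 2.94-fold. Il11ra1, the interleukin 11 receptor, stood at the level at 48.6 to 54.0 CPM against 48.9 to 53.7 CPM. In prostaglandin synthesis, Ptgs2, the inducible cyclooxygenase, rose from 82.1, 75.7 and 76.6 CPM to 248, 247 and 235 CPM, while Ptgs1, the constitutive one, stood at the level at 17.7 to 19.7 CPM against 17.6 to 18.6 CPM. Ptgfr, the receptor for prostaglandin F, rose 21.4-fold, and Ptger1, a receptor for prostaglandin E, fell by 2.15 on the log2 scale. Of the genes that act on osteoclasts, Tnfrsf11b, osteoprotegerin, rose 1.92-fold, while Tnfsf11, its ligand RANKL, had 0 reads in the control libraries and 9 in the differentiated BIGH3 libraries and was not tested.

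Antigen presentation and the interferon response did not move together. Of 15 MHC class I genes and their helpers, 14 rose and 1 fell, with a median log2 change of 0.57. B2m, the light chain of class I molecules, rose from 1325, 1365 and 1317 CPM to 2437, 2283 and 2137 CPM, and H2-K1 rose 2.79-fold and H2-D1 1.88-fold; these heavy chain genes resemble each other, and reads may be shared among them. The one that fell was Tap1, a peptide transporter, by 0.49 on the log2 scale. Of 42 interferon-stimulated genes, 22 fell, 12 rose and 5 stood at the level, with a median log2 change of -0.23. Over all genes tested 27.5% fell, 29.0% rose and 20.7% stood at the level. Stat2 fell from 282, 290.1 and 269 CPM to 115, 120.2 and 139.8 CPM, and Isg15, a ubiquitin-like modifier, fell from 222, 224 and 232 CPM to 92.1, 93.8 and 116 CPM. Irf1 was among those that rose, 2.01-fold, and Ifit2 stood at the level at 68.5 to 79.6 CPM against 71.0 to 72.1 CPM.

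**Figure D3:**
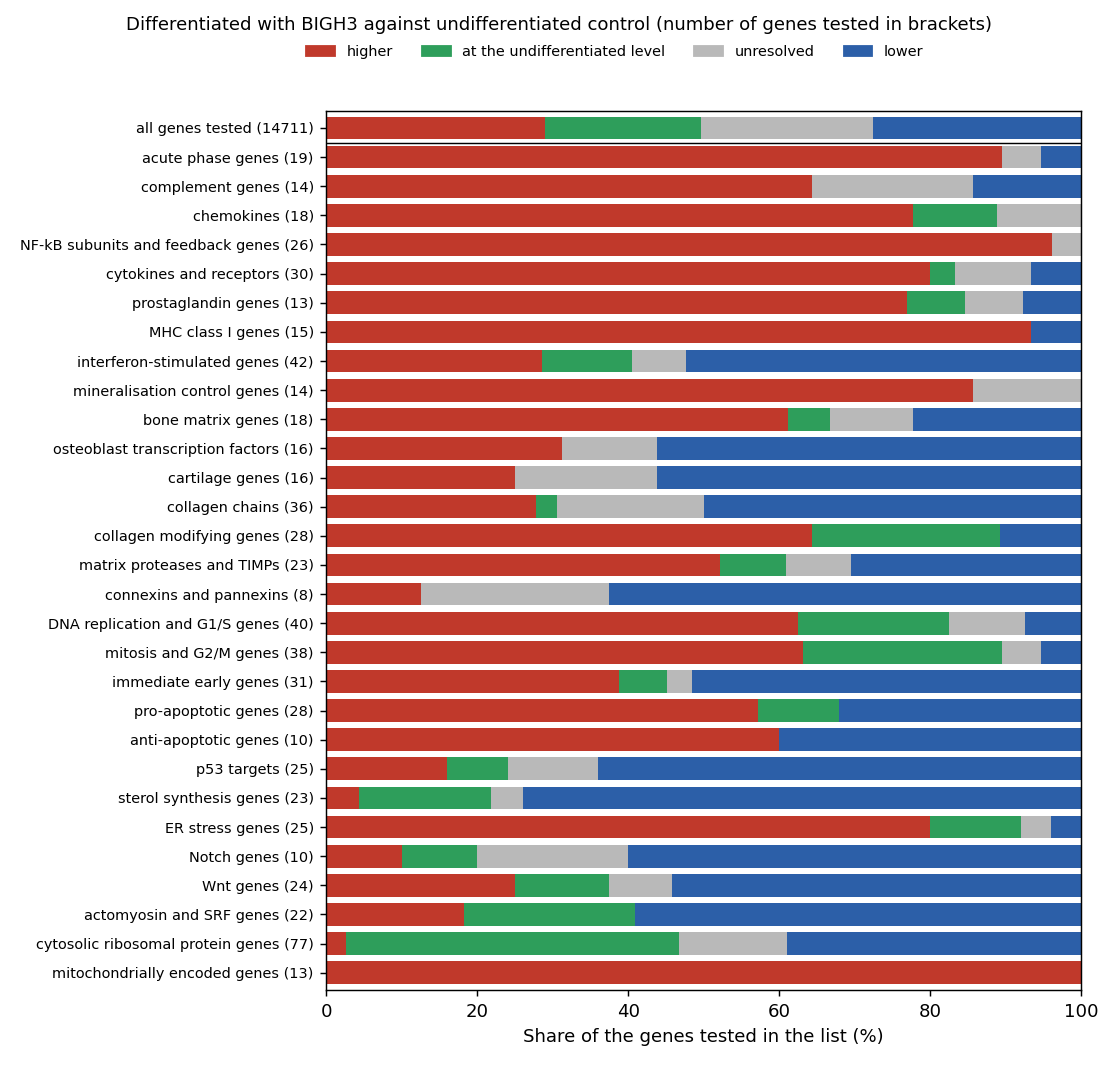
Share of the tested genes in each list (bars, % of genes tested, their number in brackets) that were higher, at the undifferentiated level, unresolved or lower in the differentiated BIGH3 cells, with all 14711 genes in the top bar. Lists of inflammation and mineralisation are mostly red, sterol synthesis, p53 target and connexin lists mostly blue, and ribosomal protein genes hold the widest green band among the lists drawn.

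Genes of bone mineral rose, while several of the transcription factors of the osteoblast lineage stood short of the undifferentiated level. Of 14 tested genes that control mineral, 12 rose and none fell, with a median log2 change of 1.14. Spp1, osteopontin, a phosphoprotein of bone matrix (chromosome 5, 104435118 to 104441050), rose from 1764, 1769 and 1743 CPM to 11010, 10690 and 10100 CPM, 6.03-fold (95% interval 5.66 to 6.41). Alpl, the alkaline phosphatase of bone, rose from 0.28, 1.39 and 0.21 CPM to 7.61, 6.84 and 7.89 CPM, 11.9-fold with an interval of 5.39 to 26.3. Its log2 change of 3.57 became 4.92 without undifferentiated control 2, the library with liver transcripts, which held most of the control level. Phospho1, the phosphatase of matrix vesicles, rose from 1.92, 1.35 and 1.57 CPM to 6.38, 6.68 and 7.44 CPM. Both phosphatases thus rose from low starting levels. Fam20c, the kinase of secreted proteins, rose 3.10-fold, Phex, which restrains FGF23, rose 2.90-fold, and Mgp, matrix Gla protein, an inhibitor of calcification, rose 2.29-fold.

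Among bone matrix genes, 11 of 18 tested rose, 4 fell and 1 stood at the level. The shares over all genes tested were 29.0%, 27.5% and 20.7%. Serpinf1 rose 2.36-fold and Col24a1, a fibrillar collagen of bone, rose 3.08-fold. Bglap, osteocalcin, rose from 2.95, 2.45 and 1.92 CPM to 3.74, 3.64 and 4.20 CPM, 1.59-fold; it has near-identical neighbours, so its reads may be divided among copies. Ibsp, bone sialoprotein, had under 1 CPM in every library of both groups, and rose. Kazald1, an IGF-binding related gene of bone, fell from 69.7, 59.7 and 71.8 CPM to 15.4, 14.7 and 14.8 CPM. Sparc, osteonectin, stood at the level, at 2691, 2545 and 2577 CPM against 2894, 2854 and 2546 CPM. The type I collagen genes stood short of it: Col1a1 fell from 3003, 2710 and 3049 CPM to 1873, 1814 and 1616 CPM, and Col1a2 from 6799, 6965 and 7721 CPM to 6427, 6275 and 5972 CPM. Without the libraries with liver transcripts the call for Col1a2 was lost (adjusted p = 0.0616). Of the 12 osteocyte markers, 6 were tested, and Phex, Dmp1 (1.57-fold), Pdpn (1.51-fold) and Ackr3 (log2 change 0.59) rose, while Cd44 (log2 change -0.55) and Irx5 (-1.45) fell.

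Of 16 tested transcription factors of the osteoblast lineage, 9 fell and 5 rose, against 27.5% and 29.0% of all genes tested. Their median log2 change was -0.40. Without the libraries with liver transcripts 3 rose, and scaled to library totals 2. Runx2, the master factor of osteoblasts, fell slightly, from 53.4, 51.2 and 48.9 CPM to 44.5, 42.2 and 45.2 CPM (log2 change -0.22, adjusted p = 0.00595), a call that was lost with offsets for transcript length (adjusted p = 0.107). Sp7, osterix, was unresolved at under 0.5 CPM in every library. Id1 and Id4, inhibitors of helix-loop-helix factors and targets of BMP signalling, fell by 2.08 and 2.38 on the log2 scale. Msx1 and Dlx5, homeobox factors, fell by 1.3 and 1.43. Lef1, a factor of Wnt signalling, rose 2.80-fold from 2.02, 2.41 and 2.23 CPM to 6.20, 5.56 and 6.94 CPM.

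**Figure D4:**
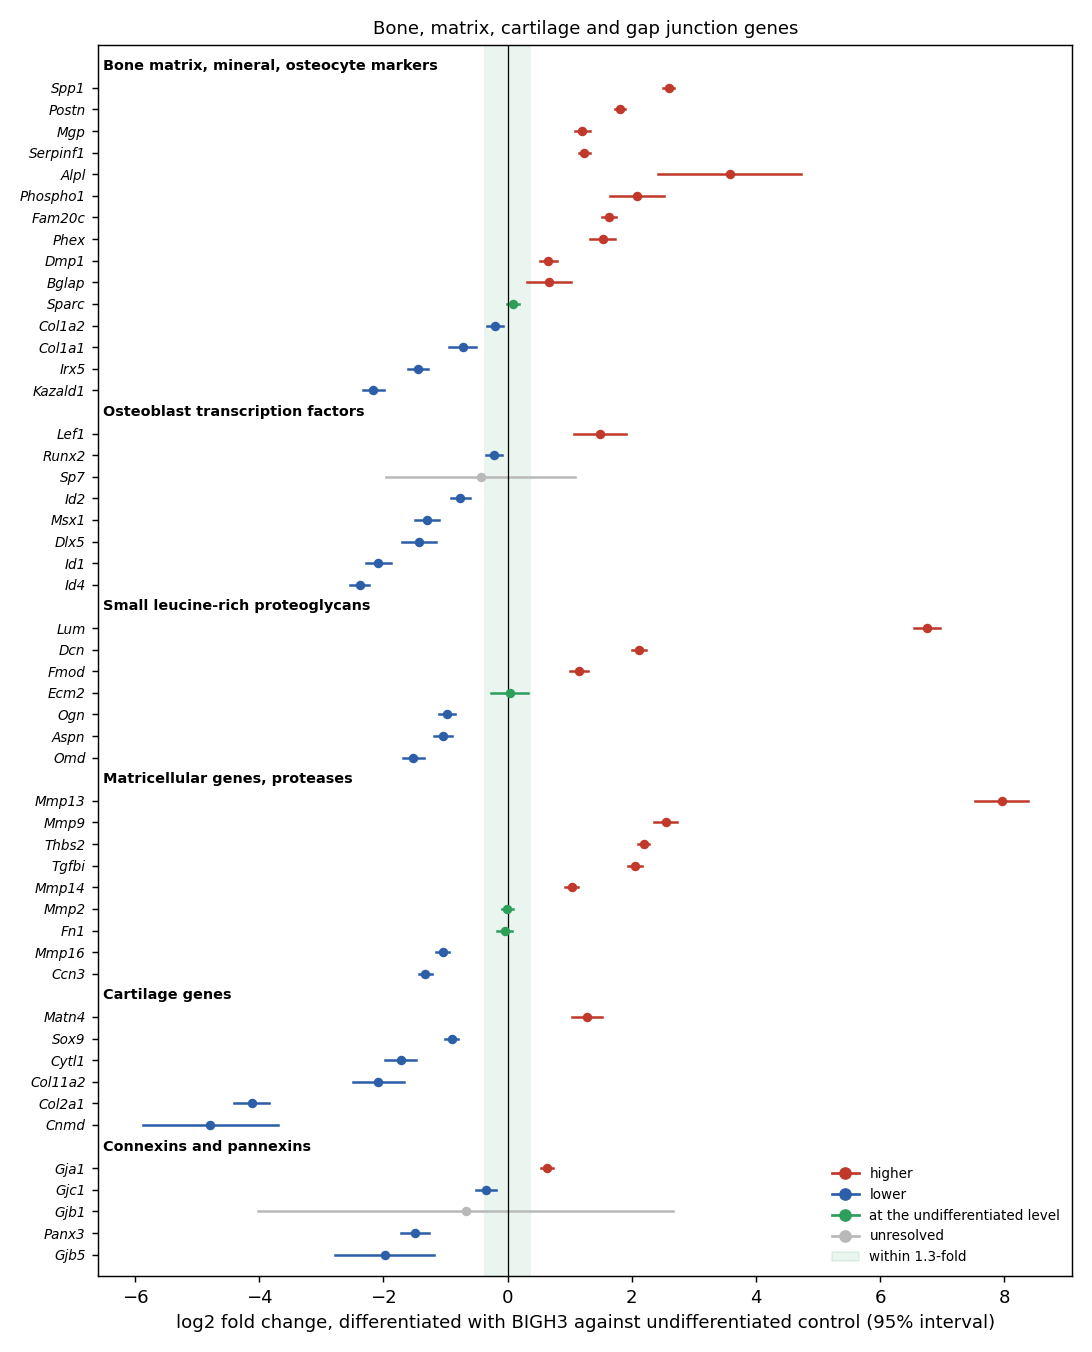
Log2 fold change of differentiated BIGH3 against undifferentiated control cells (points) with 95% intervals (lines) for genes of bone, matrix, cartilage and gap junctions, coloured by class, with the band within 1.3-fold shaded. Lum and Mmp13 lie furthest right, Cnmd and Col2a1 furthest left, and Sparc, Ecm2, Mmp2 and Fn1 lie within the band.

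Genes of the matrix around the cells changed member by member. The small leucine-rich proteoglycans, which bind collagen fibrils, split: 8 of 14 rose and 4 fell, against 29.0% and 27.5% of all genes tested. Lum, lumican, rose from 2.95, 2.62 and 3.32 CPM to 323, 320.3 and 322 CPM, 108-fold (95% interval 93.1 to 125), and Dcn, decorin, rose from 237, 238 and 229.6 CPM to 1044, 1038 and 975 CPM. Ogn, osteoglycin, fell from 1153, 1237 and 1119 CPM to 573, 582 and 628 CPM, and Aspn and Omd, relatives of Ogn, had log2 changes of -1.04 and -1.52. The sum over the list was close in both groups, at 4421 to 4530 CPM in the control libraries and 4604 to 4797 CPM in the differentiated BIGH3 libraries. Matricellular genes signal to cells rather than build fibrils. Of 16 tested, 8 rose and 5 fell, against 29.0% and 27.5% of all genes tested. Thbs2, thrombospondin 2, rose 4.57-fold and Ccn5 4.29-fold, while Ccn3 fell by 1.33 and Sparcl1 by 1.14 on the log2 scale. Fn1, fibronectin, stood at the level, at 7264, 6517 and 6221 CPM against 5923, 6470 and 6934 CPM, with overlapping libraries and a 95% interval of 0.886 to 1.05-fold.

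Among proteases and their inhibitors, 12 of 23 rose and 7 fell, against 29.0% and 27.5% of all genes tested. Mmp13, the collagenase of bone and cartilage, rose from 0.28, 0.86 and 0.66 CPM to 160.0, 158 and 147 CPM, 249-fold (95% interval 185 to 334). Mmp9, gelatinase B, rose 5.84-fold and Adamts4, an aggrecanase, rose 3.65-fold, as did the inhibitor Timp1, 3.83-fold. Mmp14, the membrane-bound collagenase, rose 2.04-fold, while Mmp16 fell by 1.05 on the log2 scale. Mmp2, gelatinase A, stood at the level, at 1445, 1441 and 1559 CPM against 1471, 1477 and 1486 CPM.

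Enzymes that modify and cross-link collagen rose in part: 18 of 28 tested were higher, 3 lower and 7 at the level, with a median log2 change of 0.29 that was -0.01 on TPM. Lox, lysyl oxidase, rose from 561, 579 and 549 CPM to 1104, 1071 and 1066 CPM, and Plod2, a lysyl hydroxylase, rose from 405, 419 and 406 CPM to 753, 739 and 752 CPM. P3h2, a prolyl hydroxylase, rose 2.83-fold, and Pcolce2, an enhancer of procollagen cleavage, fell by 1.92 on the log2 scale. Bmp1, which cleaves the procollagen end, stood at the level, at 126 to 132 CPM in the control libraries and 128 to 131 CPM in the differentiated BIGH3 libraries. Of 36 collagen chains, 18 fell and 10 rose, against 27.5% and 29.0% of all genes tested. Col3a1 was the 1 that stood at the level, at 1268, 1331 and 1606 CPM against 1490, 1454 and 1251 CPM. Col6a3, a chain of beaded filaments, fell from 714, 689 and 724 CPM to 269, 273 and 279 CPM, and Col28a1 fell by 1.95 on the log2 scale. Among elastic fibre genes, 6 of 15 fell and 5 rose, against 27.5% and 29.0% of all genes tested, with the latent TGF-β binding proteins on both sides: Ltbp2 rose 39.8-fold and Ltbp1 3.37-fold, and Ltbp4 fell by 1.85 on the log2 scale.

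Cartilage genes stood short of the undifferentiated level. Of 16 tested, 9 fell and 4 rose, against 27.5% and 29.0% of all genes tested, with a median log2 change of -0.75. Col2a1, the main collagen of cartilage, fell from 108, 112 and 126 CPM to 5.70, 6.68 and 7.61 CPM, a log2 change of -4.12 (SE 0.13), and Cnmd, chondromodulin, fell from 3.10, 2.62 and 3.21 CPM to 0.091, 0.21 and 0.00 CPM, a log2 change of -4.79 that was -5.76 without differentiated BIGH3 2. Sox9, the master factor of chondrocytes, fell from 223, 215 and 234 CPM to 122, 115 and 122 CPM. Col2a1 and Cnmd lost most of their transcript and Sox9 less, with no overlap in any of them. Matn4 rose 2.43-fold, and Col10a1, the collagen of hypertrophic cartilage, had 2 reads in the control libraries and 57 in the differentiated BIGH3 libraries, a ratio of 36.3 with a counting interval of 9.59 to 307.

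Genes of growth factor pathways moved in both directions. For comparison, 29.0% of all genes tested rose and 27.5% fell. Of 12 genes of the IGF axis and imprinted growth genes, 6 rose and 5 fell, with a median log2 change of 0.05. Igf1, insulin-like growth factor 1, rose from 220.1, 221 and 225 CPM to 721, 755 and 736 CPM, and its binding proteins Igfbp4 and Igfbp5 rose 4.82-fold and 6.63-fold. H19, an imprinted noncoding RNA, fell from 101, 112 and 137 CPM to 22.7, 18.2 and 17.0 CPM, whereas its neighbour Igf2 rose 1.49-fold. Of 29 genes of TGF-β and BMP signalling, 15 fell and 11 rose, with a median log2 change of -0.18. Tgfb1 rose 2.52-fold, and Grem1, gremlin, a secreted BMP inhibitor, rose from 2.39, 2.00 and 1.64 CPM to 94.7, 90.8 and 91.1 CPM, 46.4-fold. Smad6 and Smad9, factors of the BMP branch, fell by 1.76 and 1.26 on the log2 scale. Of 24 Wnt genes, 13 fell and 6 rose: Sfrp2, a Wnt inhibitor, fell from 455, 418 and 462 CPM to 195, 188 and 178 CPM, and the co-receptor gene Lrp6 fell by 0.68, while Ctnnb1, β-catenin, stood at the level at 519 to 536 CPM against 504 to 524 CPM. Of 10 Notch genes, 6 fell and 1 rose, with the ligand Jag1 lower by 1.31, the receptor Notch1 by 1.01 and the target Hes1 by 1.49 in absolute log2 change, and Notch2 at the level at 157 to 162 CPM against 165 to 185 CPM.

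Immediate early genes, which serum and stress switch on within minutes, moved in both directions. Of 31 tested, 16 fell and 12 rose, against 27.5% and 29.0% of all genes tested, with a median log2 change of -0.15. Fos fell from 73.1, 68.7 and 62.2 CPM to 1.19, 1.39 and 1.51 CPM, a log2 change of -5.65 (SE 0.30). Egr1 fell from 224, 229 and 197 CPM to 23.02, 24.3 and 20.3 CPM, and Fosb from 43.5, 41.9 and 36.5 CPM to 5.79, 5.46 and 7.22 CPM. Their relatives Fosl1 and Fosl2 rose, by 1.28 and 0.19 on the log2 scale, and Egr3 fell by 1.03. Egr2, Ier2 and Zfp36, which destabilises cytokine mRNA, fell by 2.69, 3.02 and 2.58 on the log2 scale. Jun, the partner of Fos in AP-1, went the other way, from 136, 137 and 150 CPM to 242, 227 and 205 CPM. Ier3 rose 2.07-fold, Klf4 fell by 0.94 on the log2 scale, and Srf, the factor that drives several of these genes, stood at the level at 20.1 to 21.4 CPM against 18.9 to 21.8 CPM. The actomyosin genes that SRF also drives had 13 of 22 lower, 4 higher and 5 at the level; Myh9, nonmuscle myosin, fell from 1195, 1230 and 1330 CPM to 645, 670.0 and 688 CPM, and Vcl, vinculin, fell by 0.89 on the log2 scale.

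Genes of the cell cycle stood slightly beyond the undifferentiated level on the TMM scale. Of 40 genes of DNA replication, 25 rose, 3 fell and 8 stood at the level, with a median log2 change of 0.34, and of 38 genes of mitosis, 24 rose, 2 fell and 10 stood at the level, with a median of 0.26. None passed 2-fold. Top2a, a topoisomerase of dividing cells, rose from 219.9, 209 and 212 CPM to 352, 358 and 308 CPM, and Cdk1, the kinase that starts mitosis, rose from 67.7, 67.9 and 58.9 CPM to 118, 108 and 100.5 CPM. Mcm2, of the replicative helicase, rose 1.55-fold, Fen1 1.80-fold and Mki67, a proliferation marker, 1.32-fold. Mcm7 stood at the level at 83.7 to 90.9 CPM against 86.1 to 93.7 CPM, as did Anln at 103 to 115 CPM against 97.5 to 109.8 CPM. These counts were smaller under other scalings: 18 and 14 genes rose on library totals, and 7 and 4 on TPM, where the median of the mitotic genes was -0.03 and Mki67 was not called. Of G1 regulators, Ccnd1, cyclin D1, fell from 554, 562 and 619 CPM to 442, 461 and 423 CPM, Cdkn1a, the inhibitor p21, fell by 0.55 on the log2 scale, Cdk6 rose 1.73-fold, and Cdk4 stood at the level at 319 to 352 CPM against 316 to 352 CPM.

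Promoters of 2 mitotic genes are shown because most promoters of the list hold TTTGAA, the core of the cell cycle homology region of mitotic genes. The letters in capitals mark it on either strand, 250 bases before the RefSeq start on the gene's strand (GRCm38.p6):
Cdk1, chr10:69352913-69353162, minus strand: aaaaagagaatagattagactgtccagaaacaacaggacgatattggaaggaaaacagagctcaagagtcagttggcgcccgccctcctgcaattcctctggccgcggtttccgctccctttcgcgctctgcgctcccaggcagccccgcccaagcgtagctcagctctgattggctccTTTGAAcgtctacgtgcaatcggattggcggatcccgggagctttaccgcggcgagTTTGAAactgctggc
Top2a, chr11:99024190-99024439, minus strand: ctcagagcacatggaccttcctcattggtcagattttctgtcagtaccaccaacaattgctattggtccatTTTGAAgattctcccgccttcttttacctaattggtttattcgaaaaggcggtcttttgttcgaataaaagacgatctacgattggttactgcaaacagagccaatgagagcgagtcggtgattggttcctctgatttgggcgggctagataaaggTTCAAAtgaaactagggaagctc
Within windows to 50 bases past the start, 22 of 31 tested mitotic genes with a window held it (71%), against 1527 of 10523 tested genes (14.5%) and 6 of 31 genes of DNA replication (19.4%).

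**Figure D5:**
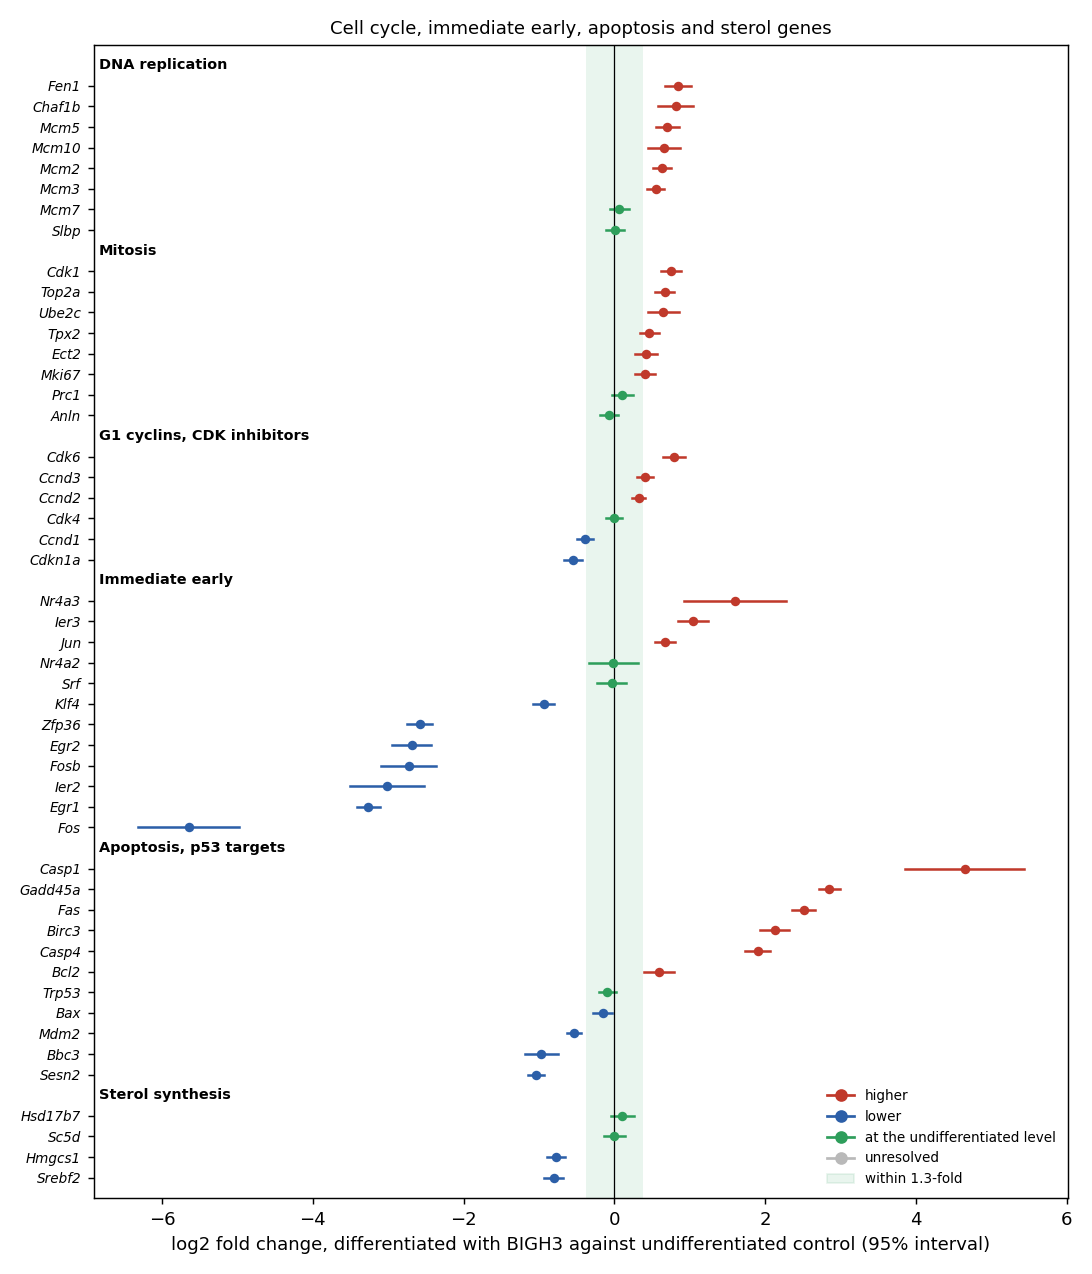
Log2 fold change of differentiated BIGH3 against undifferentiated control cells (points) with 95% intervals (lines) for genes of the cell cycle, the immediate early response, apoptosis and sterol synthesis, coloured by class, with the band within 1.3-fold shaded. The replication and mitosis genes called higher lie right of 0 and short of 2-fold, Fos and Egr1 lie far left, and Trp53, Cdk4, Srf and Sc5d lie in the band.

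Of 28 pro-apoptotic genes, 16 rose, 9 fell and 3 stood at the level, with a median log2 change of 0.23 that was -0.06 on TPM. For comparison, 29.0% of all genes tested rose, 27.5% fell and 20.7% stood at the level. Fas, the death receptor, rose from 28.8, 25.8 and 28.6 CPM to 162, 166 and 147 CPM, 5.70-fold. The inflammatory caspase genes rose too, Casp1 from 0.28, 0.33 and 0.56 CPM to 11.2, 10.9 and 8.34 CPM and Casp4 3.74-fold. Bax, the mitochondrial pore former, was called slightly lower, at 101, 84.8 and 93.8 CPM against 78.0, 86.3 and 86.6 CPM (log2 change -0.15, adjusted p = 0.0378), with overlapping libraries; without undifferentiated control 1 the adjusted p was 0.206, without undifferentiated control 3 it was 0.0782 and without differentiated BIGH3 1 it was 0.159. Bcl2, the survival gene, rose from 12.9, 11.6 and 12.1 CPM to 17.7, 19.1 and 18.3 CPM, and of 10 anti-apoptotic genes 6 rose and 4 fell, with Birc3, an NF-kB target, 4.36-fold higher and Xiap lower by 0.34 in absolute log2 change. Targets of p53 fell in most cases: 16 of 25 were lower and 4 higher, with a median log2 change of -0.26. Mdm2, the p53 ligase, fell from 397, 414 and 414 CPM to 287, 285 and 271 CPM, and Sesn2 and Bbc3 fell by 1.04 and 0.97 on the log2 scale. Trp53 itself stood at the level at 85.7 to 100.4 CPM against 82.9 to 88.9 CPM, and Gadd45a, which other stress factors also drive, rose 7.22-fold.

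Metabolic genes went in different directions. Of 23 genes of sterol synthesis and uptake, 17 fell, 1 rose and 4 stood at the level, with a median log2 change of -0.46. Hmgcs1, the HMG-CoA synthase of the pathway, fell from 158, 165 and 168 CPM to 93.4, 87.1 and 106 CPM. Of 19 fatty acid genes, 8 fell, 6 rose and 5 stood at the level, against 27.5%, 29.0% and 20.7% of all genes tested. Their median log2 change was -0.06. The largest fall among them was that of Scd2, a stearoyl desaturase, which fell from 2177, 2180 and 2184 CPM to 1021, 1030 and 1098 CPM. Ch25h, which makes 25-hydroxycholesterol, rose from 0.00, 0.20 and 0.14 CPM to 23.2, 24.2 and 19.8 CPM, a log2 change of 7.47 that was 8.11 without the libraries with liver transcripts. Of 27 genes of glycolysis and hypoxia, 10 fell, 6 rose and 7 stood at the level, against 27.5%, 29.0% and 20.7% of all genes tested, with a median log2 change of -0.12. Hif1a rose 2.10-fold, Vegfa 3.11-fold and Pfkfb3, a glycolytic activator, 4.59-fold, whereas Ndrg1 fell by 2.30 and Eno1, enolase, by 0.71 on the log2 scale. Gpi1, of glycolysis, stood at the level at 172 to 182 CPM against 171 to 180.4 CPM.

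Of 25 genes of the endoplasmic reticulum stress response, 20 rose, 1 fell and 3 stood at the level, all within 2-fold, with a median log2 change of 0.37; library totals left 16 higher and TPM 8. Calr, a calcium-binding chaperone, rose from 554, 566 and 604 CPM to 944, 940.4 and 899 CPM, and Hspa5, the main chaperone, rose 1.38-fold. Fth1, ferritin heavy chain, which stores iron, rose from 3075, 3051 and 3239 CPM to 9674, 9078 and 8185 CPM, whereas Ftl1, the light chain, stood at the level at 1533 to 1886 CPM against 1847 to 1883 CPM. All 13 genes of the mitochondrial genome that encode proteins rose, with a median log2 change of 1.12, and 11 remained higher on library totals. Of them, mt-Nd1, a subunit of complex I, rose from 1949, 2013 and 1855 CPM to 7456, 7855 and 7077 CPM. Cytosolic ribosomal protein genes held the level best among the long lists: 34 of 77 stood at it, 30 fell and 2 rose on the TMM scale, while on library totals 57 fell and 14 stood at it. Rps10 was at 606 to 661 CPM against 616 to 638 CPM.

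Markers of other tissues moved in part. Of adipocyte markers, 3 of 12 were tested, and Cd36, a fatty acid receptor, rose from 3.99, 2.74 and 3.14 CPM to 49.0, 48.2 and 54.5 CPM, while Adipoq had 2 reads in the control libraries and 22 in the differentiated BIGH3 libraries. Of 15 muscle markers tested, 9 rose, 8 of them over 2-fold, and 2 fell, with a median log2 change of 1.02. The largest log2 change in the list was 6.83. Myl1 had 0 reads in the control libraries and 37 in the differentiated BIGH3 libraries. That is at least 15.7-fold higher with the control group set to a limit of 3 reads in all. The muscle list summed to 248 to 283 CPM in the control libraries and 275 to 312 CPM in the differentiated BIGH3 libraries. Tnnt3 went against most of the list and fell from 19.6, 21.4 and 21.3 CPM to 3.10, 3.10 and 1.90 CPM, and Myod1 had no read. Among macrophage and osteoclast markers Ctsk, cathepsin K, rose 5.81-fold from 2.72 to 3.35 CPM to 16.7 to 17.9 CPM; the list summed to 29.1 to 30.1 CPM against 53.3 to 62.1 CPM. Of 4 epithelial genes tested, 2 fell and 2 were unresolved: Krt14 and Cdh1 fell by 2.95 and 2.17 on the log2 scale. Epithelial markers summed to 30.1 CPM in undifferentiated control 2 and 9.91 CPM in differentiated BIGH3 3, the libraries with liver transcripts, against 20.1 to 20.7 CPM and 3.51 to 3.74 CPM in the others, and the median log2 change of the list, -1.57, was 0.12 without undifferentiated control 2. Of the liver transcripts, 9 of 12 tested were unresolved, Apoh fell, and Trf, transferrin, rose from 0.61, 4.66 and 0.63 CPM to 20.2, 20.5 and 24.7 CPM, a log2 change of 3.47 that was 5.12 without undifferentiated control 2. The part of other cells in these results was not tested.

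The largest falls differed in how well they were measured. Hist2h2aa2, a histone gene with a near-identical copy beside it, had 875 reads in the control libraries and 0 in the differentiated BIGH3 libraries, a level at least 229-fold lower when the limit is set to 3 reads, and its call was lost without undifferentiated control 2 (adjusted p = 0.0617), undifferentiated control 3 (0.0669) or any differentiated BIGH3 library (0.0554 to 0.0625). Ints9, whose protein belongs to the Integrator complex, fell from 27.1, 25.8 and 22.2 CPM to 0.23, 0.37 and 0.22 CPM, with a 95% interval of 0.0003 to 0.479-fold. Other large falls had tight intervals, such as Sox11, a developmental transcription factor, from 23.5, 21 and 22.4 CPM to 2.73, 3.53 and 2.57 CPM.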

How the data were processed

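Total RNA of the MLO-Y4 libraries was sequenced after preparation with a KAPA Standard RNA-Seq kit, per the labels' protocols; no label says whether strand was kept. The authors deposited 1 Salmon table per library with an estimated count and a TPM value for each transcript, per the file headers. FastQC, cutadapt, Salmon, StringTie and mm10 are named, without versions, per the submitters' processing notes.

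Here the estimated counts were summed per gene through GENCODE M21 (GRCm38), which matched 137063 of 147828 transcripts. The others held 1.28% to 3.67% of a library's reads over the whole study and were left out. Their share was 1.44% to 1.49% in the undifferentiated control libraries and 2.49% to 3.67% in the differentiated BIGH3 libraries. Sums were rounded to whole numbers. edgeR 4.0.16 (R 4.3.3) fitted all 12 libraries with 1 term for each of 4 groups, TMM scaling, filterByExpr and the robust quasi-likelihood test; p-values were Benjamini-Hochberg adjusted over the 14711 genes and called under 0.05. The other 6 libraries entered only the spread, filter and scaling, and the fit had 8 residual degrees of freedom. Depth per library was 19014492 to 27612155 reads in the groups compared; intervals on reads cover counting error only. The script was tested on simulated counts.

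The comparison and gene lists were chosen with earlier results of these data known. Named genes were the 20 largest rises and falls, connexins and pannexins, Tgfbi, Bax, Bcl2, up to 6 called members of each list by adjusted p and 2 at the level, and the 10 highest genes at the level; some of these are not reported here. Afp, Alpl, Ibsp, Bglap, Col1a1, Col1a2, Col10a1, Runx2, Sp7, Tnfrsf11b, Saa1, Ptx3, Il1a, Il6, Cxcl1, Nfkbia, Timp1, Isg15, Jun, Fosl1, Fosl2, Egr3, Smad9, Phospho1, genes with too few reads to test, and the promoters printed were named after their values were seen. Alternatives were DESeq2 1.42.0, other scalings and filters, length offsets, subsets of libraries, and limma 3.58.1 on log2(TPM + 1) and log2(TPM + 0.1); TMM scaling of TPM was added after the data were seen.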

Additional observations from a re-analysis of the deposited data

How the results depend on the processing

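The scale, and to a lesser degree the filter, moved the counts of genes. Against 4267 genes higher and 4050 lower, limma on log2(TPM + 1) gave 1936 and 6572, and on log2(TPM + 0.1) 1921 and 6549. After TMM scaling of TPM, limma on log2(TPM + 1) gave 3666 and 3778. Scaling to library totals gave 2998 and 5581, and the DESeq2 Wald test 4037 and 3863. Genes at the undifferentiated level, 3042 in the report, numbered 2018 on log2(TPM + 0.1), and 2056 or 3774 with a margin of 1.2-fold or 1.5-fold. On TPM these were mostly other genes. Of the 3042, 401 stayed at the level on log2(TPM + 0.1) and 512 on log2(TPM + 1), while 1966 and 1974 were called. On each of these TPM scales 81 of the calls reversed, and after TMM scaling of TPM 2 did. Genes over 2-fold higher, 1167 in the report, numbered 773 with a filter of a mean CPM of at least 1, 466 on log2(TPM + 1) and 617 after TMM scaling of TPM; those over 2-fold lower, 680 in the report, numbered 1188 on log2(TPM + 0.1) and 322 after TMM scaling of TPM. The stricter filter tested fewer genes, 12589; for the others the cause was not tested. Leaving out 1 library at a time gave 3732 to 4036 genes higher, 3776 to 3998 lower, 2987 to 3167 at the level, 1107 to 1203 over 2-fold higher and 643 to 724 over 2-fold lower, and reversed none of the calls.

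Named genes changed direction only on library totals and TPM, where the median gene moved down. On log2(TPM + 1) and log2(TPM + 0.1) the log2 change was -0.18 and -0.18 for Bmp1, -0.064 and -0.064 for Ccnd2, -0.36 and -0.39 for Hsd17b7, -0.28 and -0.28 for Il11ra1, -0.36 and -0.41 for Itga10, -0.34 and -0.35 for Mcm7, -0.19 and -0.19 for Pgd, -0.079 and -0.080 for Rbpj, -0.25 and -0.25 for Rps10, -0.25 and -0.25 for Slbp, -0.17 and -0.17 for Sparc, and -0.17 and -0.17 for Tpm4. On library totals it was -0.13 for Bmp1 and -0.14 for Rps10.

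The replicate numbers did not pair the libraries: deviations of libraries with the same number correlated at 0.13, -0.18 and -0.14. With a replicate block 4247 genes were higher, 4058 lower, 3014 at the level, 1154 over 2-fold higher and 680 over 2-fold lower, and 8178 calls were shared with the fit without it. The unresolved genes, at a median level of 0.33 log2 CPM, could be placed neither at nor away from the undifferentiated level at this depth.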
